A study of Mus musculus with 14 samples.

Results

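The HoxC cluster was described in 5 sorted populations of mouse forelimb bud cells. Its 9 protein-coding genes, Hoxc4, Hoxc5, Hoxc6, Hoxc8, Hoxc9, Hoxc10, Hoxc11, Hoxc12 and Hoxc13, were taken by name from the 24454 genes of the count table, and all 9 were listed there. The embryos carried an EGFP reporter knocked into the Sox9 gene, and pooled forelimb buds were sorted after removal of dead cells and of cells with blood, endothelial or epithelial surface antigens (CD31, Ter119, CD45, EpCam, Gr1, CD11b). At E10.5, 4 populations were collected. S9-JAG1+ limb bud mesenchymal progenitors (LMPs, 3 libraries, named Jagged) lacked Sox9-EGFP and SCA-1 and carried JAG1. S9-Pαhi LMPs (3 libraries, named PDGFRa) lacked Sox9-EGFP, JAG1 and SCA-1 and had high PDGFRα. S9+Pαhi osteochondrogenic progenitors (3 libraries, named OCP) had Sox9-EGFP and high PDGFRα. S9-SCA-1+ cells (2 libraries, replicates 2 and 3, named Sca) lacked Sox9-EGFP and JAG1 and carried SCA-1. At E11.5, S9+COL2+ chondroblasts (3 libraries, named CB) were sorted with the gate of the OCPs, so a difference between chondroblasts and any other population cannot be told apart from a difference between stages. In each bulk library, fewer cells of a type and less RNA per cell cannot be told apart.

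Hox genes code for transcription factors that bind DNA through a homeodomain. They lie in 4 clusters, and within a cluster the genes near one end are expressed anteriorly in the body axis and those near the other end posteriorly, down to the tail. In limb buds the HoxA and HoxD clusters pattern the skeleton from shoulder to digits. Of the HoxC genes, Hoxc4, Hoxc5 and Hoxc6 are known for expression at the level of the forelimb, Hoxc8 for the trunk between the limbs, and Hoxc9, Hoxc10 and Hoxc11 for the hindlimb bud, where the transcription factors Pitx1 and Tbx4 are also expressed. Hoxc12 and Hoxc13 are the most posterior genes of the cluster, and Hoxc13 is also known for hair and nail.

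The cluster spans chr15:102921131-103036856 of GRCm38 (115726 bases). All members are transcribed from the plus strand in the order Hoxc13, Hoxc12, Hoxc11, Hoxc10, Hoxc9, Hoxc8, Hoxc6, Hoxc5 and Hoxc4. The long noncoding RNA Hotair lies on the opposite strand between Hoxc12 and Hoxc11, the microRNA gene Mir196a-2 between Hoxc10 and Hoxc9, and Mir615 within Hoxc5. The homeobox is the stretch in which the members resemble each other most, so it is shown here for a gene of each expression pattern described below. Sequences are from GENCODE vM21 transcripts, and capitals mark the 18 bases that code for the invariant centre of the recognition helix.
Hoxc4, chr15:103035663-103035842: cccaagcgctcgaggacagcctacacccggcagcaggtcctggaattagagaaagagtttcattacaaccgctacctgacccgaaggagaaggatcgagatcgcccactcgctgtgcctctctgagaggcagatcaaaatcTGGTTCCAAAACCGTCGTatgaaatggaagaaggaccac
Hoxc6, chr15:103010754-103010933: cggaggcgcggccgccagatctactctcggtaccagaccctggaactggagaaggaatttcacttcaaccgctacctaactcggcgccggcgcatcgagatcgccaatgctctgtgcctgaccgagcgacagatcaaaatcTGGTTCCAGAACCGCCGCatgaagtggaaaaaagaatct
Hoxc8, chr15:102992571-102992750: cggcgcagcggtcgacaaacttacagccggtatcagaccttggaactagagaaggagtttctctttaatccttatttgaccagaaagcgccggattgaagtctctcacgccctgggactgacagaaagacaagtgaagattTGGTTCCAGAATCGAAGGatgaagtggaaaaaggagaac
Hoxc10, chr15:102970848-102971027: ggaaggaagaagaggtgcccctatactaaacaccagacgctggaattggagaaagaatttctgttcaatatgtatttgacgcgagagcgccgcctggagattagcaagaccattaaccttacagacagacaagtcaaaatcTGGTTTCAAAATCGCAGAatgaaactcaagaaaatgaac
Hoxc13, chr15:102927210-102927389: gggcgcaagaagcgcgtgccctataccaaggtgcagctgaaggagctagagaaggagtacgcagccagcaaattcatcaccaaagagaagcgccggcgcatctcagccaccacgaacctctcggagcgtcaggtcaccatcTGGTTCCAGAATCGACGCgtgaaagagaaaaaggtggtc

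Each homeobox of 180 bases lies within 1 exon. Among the 9 members, Hoxc5 and Hoxc6 were most alike, with 77.8% identical bases, and Hoxc5 and Hoxc13 least, with 48.3%. The longest identical run between any members was 20 bases (Hoxc4 and Hoxc6). Windows of 50 bases were taken from 1 coding transcript of each member. No such window of Hoxc4, Hoxc5, Hoxc6, Hoxc11, Hoxc12 or Hoxc13 occurred in a transcript of another gene. In Hoxc8 0.77% and in Hoxc9 2.06% of the windows did, and all of these were simple repeats made almost wholly of a pair of bases. In Hoxc10 6.4% of the windows were shared with Hoxc5, through a processed transcript of Hoxc5 in GENCODE whose exon overlaps 166 bases of Hoxc10. In RefSeq, whose exons were used for counting, Hoxc5 lies at chr15:103014008-103017429 and does not overlap Hoxc10 (chr15:102966796-102971898).

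Total counts per library ranged from 20316583 to 29162751. Levels are CPM, that is, read counts brought to a common library total, with totals scaled by the trimmed mean of M values (TMM), and a count of 0 allows for up to 3 counts, or 0.101 to 0.149 CPM depending on the library, for counting error only. Marker sums set some populations apart. The sum of 8 myogenic genes was 1554 CPM in both Sca libraries and at most 16.2 CPM elsewhere. For 7 chondrogenic genes it was at least 1442 CPM in OCP and CB and at most 273 CPM elsewhere. For 7 genes of posterior and distal mesenchyme it was at least 1759 CPM in Jagged and at most 883 CPM elsewhere. The last 2 lists hold Sox9 and Jag1, on which cells were sorted. The PDGFRa label was not checked by a list, and mean Pdgfra was 443 CPM there, 718.5 CPM in OCP and 864 CPM in CB. Replicates differed by more than sampling noise in all populations. Hoxc4 to Hoxc11 passed the filter on low counts (7 of 9 members); Hoxc12 and Hoxc13 did not and were not tested. A member counted as called where its adjusted p did not exceed 0.1 and its log2 fold change reached 1.2 in either direction.

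The members are described in 4 sets, a grouping by level and pattern that was not tested. Hoxc4, Hoxc5 and Hoxc6 were the main transcripts, differed between populations and moved together. Hoxc8 was far less abundant and lowest in Sca and CB. Hoxc9, Hoxc10 and Hoxc11 varied from library to library within populations. Hoxc12 and Hoxc13 were found almost only in 1 library.

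**Figure D1:**
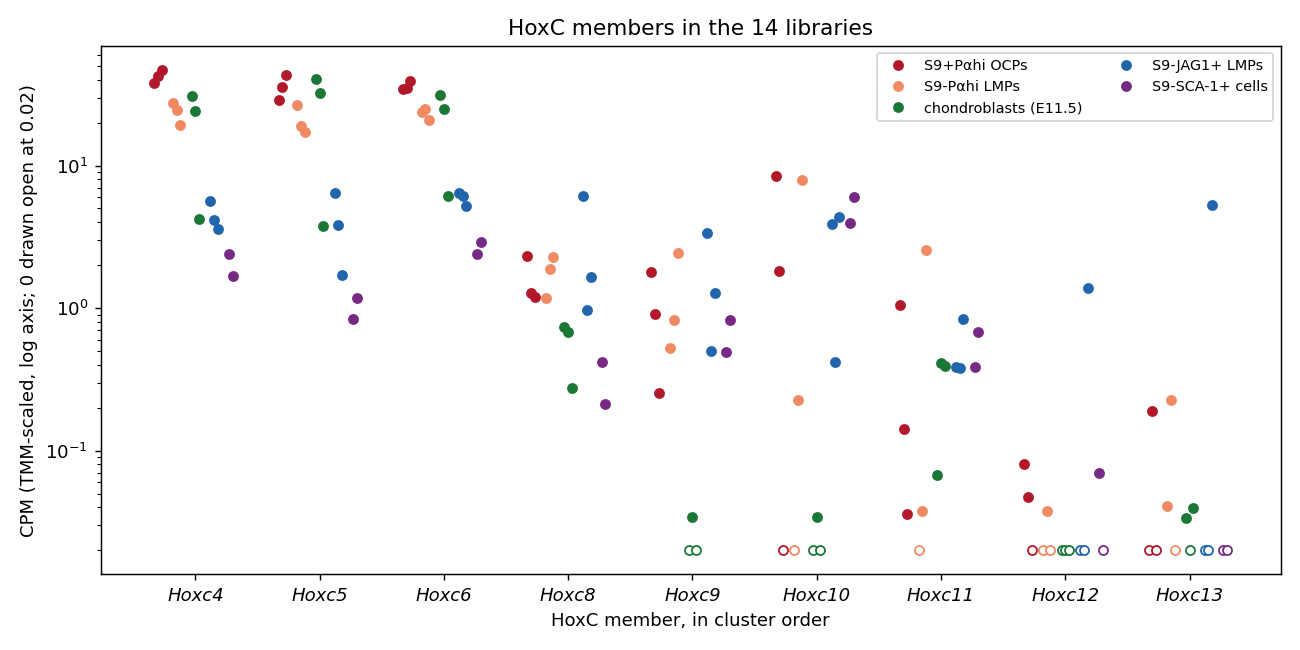
Level of each HoxC member (CPM on TMM-scaled totals, log axis) in cluster order, 1 point per library, coloured by population; open points at 0.02 are counts of 0. Hoxc4, Hoxc5 and Hoxc6 lie between 0.839 and 46.8 CPM in all 14 libraries, while Hoxc12 and Hoxc13 have most points at 0 and 1 high point each, from library Jagged 3.

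Hoxc4, Hoxc5 and Hoxc6 had their highest levels in OCPs, where all 3 libraries were above all libraries of S9-Pαhi LMPs, S9-JAG1+ LMPs and S9-SCA-1+ cells. In S9-JAG1+ LMPs and S9-SCA-1+ cells the same genes were at a small share of that level. Hoxc4 was measured at 38.0, 42.3 and 46.8 CPM in OCP, at 27.3, 24.6 and 19.3 CPM in PDGFRa, at 30.9, 24.2 and 4.24 CPM in CB, at 5.61, 4.15 and 3.61 CPM in Jagged, and at 2.38 and 1.67 CPM in Sca. The libraries of these populations did not overlap, except that CB libraries 1 and 2 lay among or above those of PDGFRa and CB library 3 fell within the range of Jagged. Hoxc5 was measured at 28.7, 35.7 and 43.2 CPM in OCP, at 26.8, 19.1 and 17.1 CPM in PDGFRa, at 40.5, 32.3 and 3.77 CPM in CB, at 6.47, 3.86 and 1.70 CPM in Jagged, and at 0.839 and 1.18 CPM in Sca. CB libraries 1 and 2 were here within the range of OCP, and library 3 was again within that of Jagged. Hoxc6 was measured at 34.5, 35.2 and 39.5 CPM in OCP, at 23.6, 24.9 and 20.9 CPM in PDGFRa, at 31.0, 25.1 and 6.13 CPM in CB, at 6.47, 6.08 and 5.19 CPM in Jagged, and at 2.41 and 2.88 CPM in Sca. Its order of populations was that of Hoxc4.

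**Figure D2:**
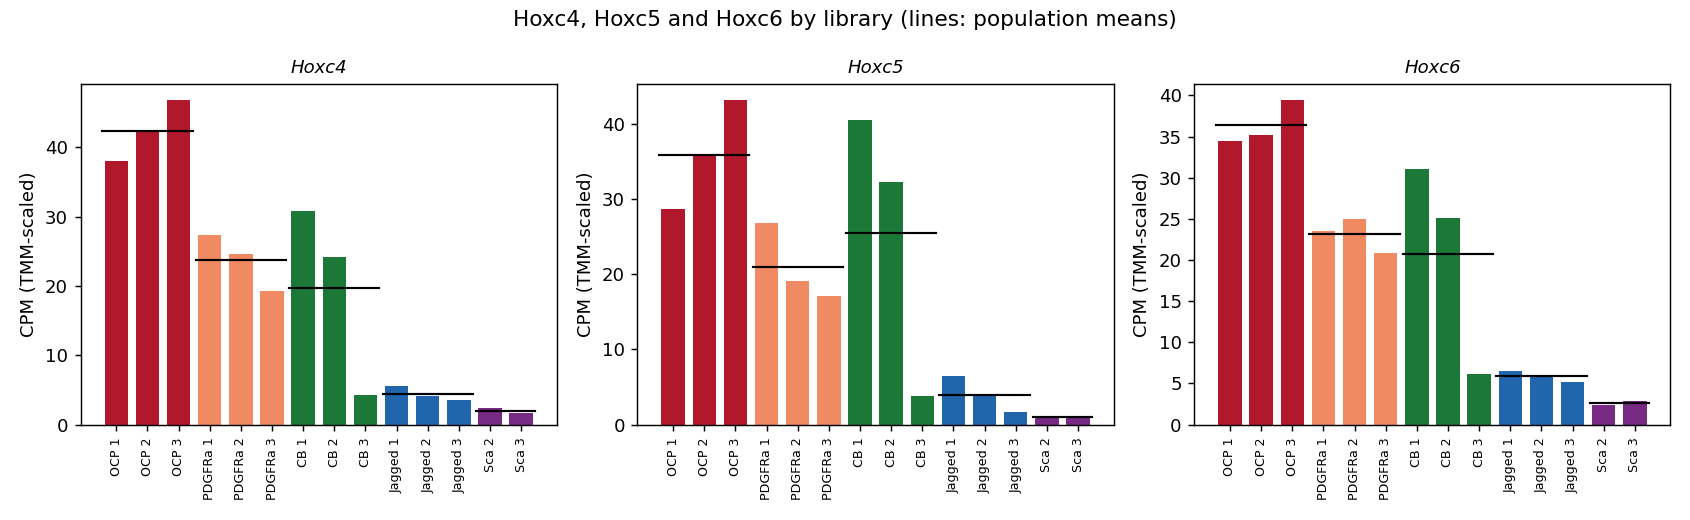
Levels of Hoxc4, Hoxc5 and Hoxc6 (CPM on TMM-scaled totals) in each library, grouped and coloured by population, with black lines at the population means. In each panel the 3 OCP bars are above the PDGFRa bars, the Jagged and Sca bars are the lowest groups, and the bar of CB library 3 is at Jagged level, at 4.24, 3.77 and 6.13 CPM.

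In population means, Hoxc4 was ordered OCP (42.4 ± 4.44 CPM, SD, n = 3), PDGFRa (23.7 ± 4.07, n = 3), CB (19.8 ± 13.9, n = 3), Jagged (4.46 ± 1.04, n = 3) and Sca (2.03 ± 0.498, n = 2). Between neighbours in this order, only the step to Jagged was called, from CB (log2 fold change of CB over Jagged 2.16 ± 0.48, SE, adjusted p = 0.00154). OCP over PDGFRa gave 0.84 ± 0.43 (adjusted p = 0.218), CB against PDGFRa -0.26 ± 0.43 (adjusted p = 0.649) and Sca against Jagged -1.13 ± 0.62 (adjusted p = 0.220). CB was below OCP in all libraries, by a log2 fold change of -1.09 ± 0.43 that was short of the fold limit (adjusted p = 0.0776). This difference was called without CB library 1 (-1.58, adjusted p = 0.0289). It was not called without CB library 3, which had the lowest Hoxc4 level of CB (4.24 CPM). For Hoxc6 the order was the same, with means of 36.4 ± 2.70, 23.1 ± 2.07, 20.8 ± 13.0, 5.91 ± 0.652 and 2.65 ± 0.333 CPM. For Hoxc5, CB (25.5 ± 19.3 CPM) stood above PDGFRa (21.0 ± 5.09 CPM) in the mean, with a difference of 0.28 ± 0.55 that was not called (adjusted p = 0.698). Per length, Hoxc5 had the lowest mean level of the 3 genes in each of the 5 populations. Per kilobase of exon, means in OCP were 21.4 for Hoxc4, 13.1 for Hoxc5 and 22.8 CPM for Hoxc6, and means in CB were 9.97, 9.34 and 13.0 CPM.

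Hoxc4, Hoxc5 and Hoxc6 were the members called higher in OCPs than in S9-JAG1+ LMPs (3 of 7 tested, against 9.03% of all 15125 genes tested that were called in this direction). Their log2 fold changes were 3.25 ± 0.49 for Hoxc4 (adjusted p = 0.000124), 3.17 ± 0.63 for Hoxc5 (adjusted p = 0.00117) and 2.62 ± 0.39 for Hoxc6 (adjusted p = 0.000120). The same 3 genes were called higher in S9-Pαhi than in S9-JAG1+ LMPs (4.42% of all genes in this direction) with log2 fold changes of Jagged against PDGFRa of -2.42 ± 0.48, -2.40 ± 0.62 and -1.97 ± 0.39 (adjusted p = 0.00246, 0.0133 and 0.00229). They were also called higher in chondroblasts than in S9-JAG1+ LMPs (15.2% of all genes), although CB library 3 overlapped the Jagged libraries. Without CB library 3, these log2 fold changes were 2.59 for Hoxc4, 3.15 for Hoxc5 and 2.21 for Hoxc6.

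Against S9-SCA-1+ cells, the 3 genes were called higher in OCPs (8.03% of all genes in this direction), in S9-Pαhi LMPs (5.58%) and in chondroblasts (13.9%). The log2 fold changes of Sca against OCP were -4.38 ± 0.63 for Hoxc4 (adjusted p = 9.11e-05), -5.15 ± 0.87 for Hoxc5 (adjusted p = 0.000379) and -3.78 ± 0.50 for Hoxc6 (adjusted p = 4.71e-05). Red cell genes moved with this population: all 7 of a list of 7 were called higher in Sca than in each other population, and they summed to 116 CPM in Sca library 2 and 3226 CPM in library 3, against 2.54 to 73.3 CPM elsewhere. Without Sca library 3, the log2 fold changes of Sca against OCP were -4.15 for Hoxc4, -5.41 for Hoxc5 and -3.91 for Hoxc6, and the 3 genes stayed called against OCP, PDGFRa and CB. Against S9-JAG1+ LMPs, none of the 3 genes was called (adjusted p = 0.220, 0.129 and 0.107). All Sca libraries were below all Jagged libraries for these genes, but how many of all genes separated in this way was not counted. Hoxc5 was called there by DESeq2 (log2 fold change -1.99, adjusted p = 0.0514) and by edgeR's likelihood ratio test (adjusted p = 0.0251), and without CB library 3 (adjusted p = 0.00808) or Jagged library 3 (adjusted p = 0.0869). Between OCPs and S9-Pαhi LMPs no member was called, at an unadjusted p under 0.05 also 0, and 0 by DESeq2 and the likelihood ratio test, where 4.84% of all genes were called in either direction. In the joint test of all 5 populations, 6 of the 7 tested members were called (29.2% of all genes). The exception was Hoxc11 (adjusted p = 0.829), and Hoxc10 was just inside the limit (adjusted p = 0.09996) and was lost in 11 of 24 alternatives.

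Over the 14 libraries, log2 levels of Hoxc4, Hoxc5 and Hoxc6 were correlated with r of 0.976 to 0.992 (Pearson, between genes over libraries that share population and depth, as a description). The ratio between them was not fixed. Hoxc5 had 0.755 to 0.922 counts for each count of Hoxc4 in OCP and 0.776 to 0.981 in PDGFRa, 1.31 and 1.33 in CB libraries 1 and 2 but 0.889 in library 3, 0.473 to 1.15 in Jagged, and 0.353 and 0.702 in Sca. Hoxc6 had 0.832 to 0.908 counts for each count of Hoxc4 in OCP and 1.15 to 1.46 in Jagged. Hoxc4, Hoxc5 and Hoxc6 together held 95.2% to 99.2% of the HoxC counts in CB, 88.1% to 98.9% in OCP and 79.0% to 97.8% in PDGFRa, but 41.5% to 86.2% in Jagged and 51.4% and 42.6% in Sca. In Sca the rest came mainly from Hoxc9, Hoxc10 and Hoxc11, with 44.1% and 55.8%.

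Library 3 of the chondroblasts stood apart for Hoxc4, Hoxc5 and Hoxc6. The mean of CB libraries 1 and 2 was 6.49 times the level of library 3 for Hoxc4, 9.65 times for Hoxc5 and 4.58 times for Hoxc6. Among 13051 genes above 1 CPM in both other CB libraries, 75 (0.575%) were more than 3-fold lower in library 3 than in either of them and 0 were more than 3-fold higher. Genes at 1 CPM or less in CB library 1 or 2 were left out. Genes found mainly in library 3 could thus not count as higher, and the 2 directions are not an even comparison. The lower genes included 6 of the 7 HoxB genes above 1 CPM (Hoxb3, Hoxb4, Hoxb5, Hoxb6, Hoxb7 and Hoxb8), 0 of 10 HoxA and 0 of 8 HoxD genes. They also included Meis1, Meis2 and Meis3, homeobox cofactors of Hox proteins that mark the proximal limb bud. Meis1 was at 55.2 and 41.0 CPM in CB libraries 1 and 2 and at 12.3 CPM in library 3, and Meis2 was at 115 and 86.6 CPM and at 15.7 CPM. This comparison was chosen after the values were seen, and it rests on 1 library, so it has no test. Chondrogenic markers were at 2192 to 3313 CPM over the CB libraries, and the part that the composition of library 3 has in these differences was not tested.

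Hoxc8, a trunk gene, was present at low level in all 14 libraries, and its mean was highest in Jagged and, as for Hoxc4 to Hoxc6, lowest in Sca. It was measured at 2.31, 1.28 and 1.19 CPM in OCP, at 1.18, 1.88 and 2.29 CPM in PDGFRa, at 0.740, 0.684 and 0.275 CPM in CB, at 6.08, 0.964 and 1.66 CPM in Jagged, and at 0.420 and 0.214 CPM in Sca. All Sca and CB libraries were below all libraries of the other populations, and library 1 of Jagged was the highest. The rank of the Jagged mean rests on this library. Jagged libraries 2 and 3 were below the highest libraries of OCP and PDGFRa. Hoxc8 was called higher than in Sca in Jagged (4.91% of all genes in this direction; log2 fold change of Sca against Jagged -3.17 ± 0.77, adjusted p = 0.00704), in PDGFRa (-2.47 ± 0.78, adjusted p = 0.0330) and in OCP (-2.31 ± 0.78, adjusted p = 0.0315). The calls against PDGFRa and OCP were lost without Sca library 3, which leaves 1 Sca library (adjusted p = 0.225 and 0.196).

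Against chondroblasts, Hoxc8 was called higher in S9-JAG1+ LMPs (CB against Jagged -2.33 ± 0.61, adjusted p = 0.00462), in S9-Pαhi LMPs (-1.62 ± 0.62, adjusted p = 0.0450) and in OCPs (-1.47 ± 0.63, adjusted p = 0.0982). The last was just inside the threshold and was lost in 14 of 25 alternatives, with adjusted p = 0.277 without OCP library 1 and 0.242 without CB library 3. Without Jagged library 1, the difference between CB and Jagged was -1.19 and thus under the fold limit (adjusted p = 0.0487), and the call against PDGFRa was lost without PDGFRa library 3 (adjusted p = 0.128) or CB library 3 (adjusted p = 0.124). Of 7 genes of the flank and lateral mesoderm, Gata6, Hand1 and Wt1 had the highest level of all 14 libraries in Jagged library 1. Gata6 was at 34.9 CPM there and at 10.1 and 10.7 CPM in the other Jagged libraries, and Hand1 was at 7.11 CPM against 1.17 and 1.66 CPM. Gata4, Foxf1 and Osr1 were higher there than in the other Jagged libraries but not highest of all, and Tbx18 was lower (23.9 against 27.3 and 27.8 CPM). Over the whole list, sums in Jagged were 41.5 to 72.8 CPM, with library 1 highest, and 300.0 to 349.8 CPM in OCP, and the part of such cells in the Hoxc8 level was not tested.

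Hoxc9, Hoxc10 and Hoxc11 differed more between libraries of 1 population than between most populations, except that Hoxc9 and Hoxc10 were near 0 in chondroblasts. Hoxc9 was measured at 1.78, 0.903 and 0.253 CPM in OCP, at 0.529, 0.827 and 2.44 CPM in PDGFRa, at 0, 0.0342 and 0 CPM in CB, at 3.38, 0.503 and 1.27 CPM in Jagged, and at 0.490 and 0.819 CPM in Sca. All CB libraries were below all others, and within OCP, PDGFRa and Jagged the highest library was 7.05, 4.62 and 6.73 times the lowest. Hoxc10 was measured at 8.48, 1.81 and 0 CPM in OCP, at 0, 0.226 and 7.92 CPM in PDGFRa, at 0, 0.0342 and 0 CPM in CB, at 3.90, 0.419 and 4.32 CPM in Jagged, and at 3.95 and 6.02 CPM in Sca. OCP and PDGFRa each held a library at 0 and the 2 highest libraries of all, whereas both Sca libraries were at 3.95 CPM or more. Hoxc11 was measured at 1.05, 0.143 and 0.0362 CPM in OCP, at 0, 0.0376 and 2.54 CPM in PDGFRa, at 0.0673, 0.411 and 0.393 CPM in CB, at 0.385, 0.377 and 0.832 CPM in Jagged, and at 0.385 and 0.677 CPM in Sca. Unlike its neighbours, it was counted in CB libraries 2 and 3, with 12 and 10 counts.

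**Figure D3:**
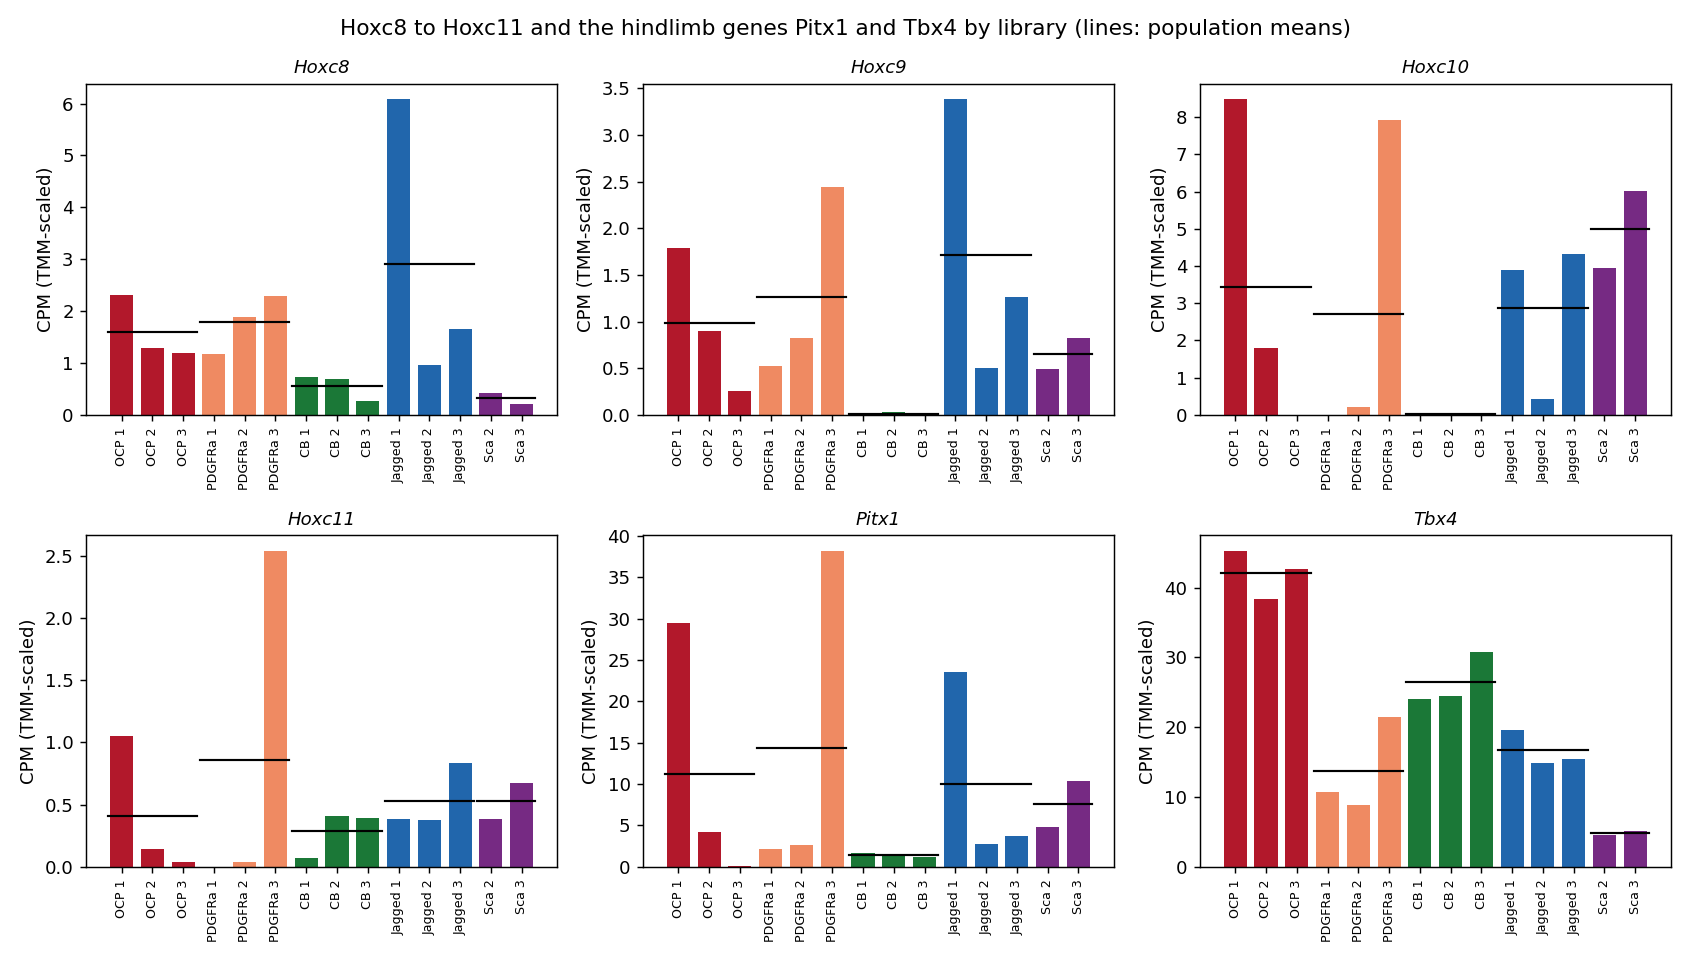
Levels of Hoxc8, Hoxc9, Hoxc10 and Hoxc11 and of the hindlimb genes Pitx1 and Tbx4 (CPM on TMM-scaled totals) in each library, grouped and coloured by population, with black lines at the population means. OCP 1, PDGFRa 3 and Jagged 1 have the 3 highest bars of Pitx1 (29.4, 38.2 and 23.6 CPM), OCP 1 and PDGFRa 3 also have the highest of Hoxc10 and Hoxc11, Jagged 1 has the highest of Hoxc8 and Hoxc9, and Tbx4 is high in all OCP libraries.

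The 3 libraries with most Hoxc9 were OCP 1, PDGFRa 3 and Jagged 1, and the same 3 had most Pitx1, which specifies hindlimb identity. Pitx1 was at 29.4, 4.14 and 0.0723 CPM in OCP, at 2.11, 2.67 and 38.2 CPM in PDGFRa, at 1.61, 1.30 and 1.14 CPM in CB, at 23.6, 2.72 and 3.77 CPM in Jagged, and at 4.76 and 10.4 CPM in Sca. OCP library 3, lowest in Pitx1, was also the lowest of OCP in Hoxc9 and had 0 counts of Hoxc10. Tbx4 was at 45.2, 38.4 and 42.7 CPM in OCP, at 10.7, 8.88 and 21.5 CPM in PDGFRa, at 24.1, 24.4 and 30.8 CPM in CB, at 19.7, 14.9 and 15.4 CPM in Jagged, and at 4.48 and 5.06 CPM in Sca. Isl1 was at 1.95, 1.47 and 1.48 CPM in OCP, at 0.285, 0.338 and 1.54 CPM in PDGFRa, at 2.09, 2.09 and 1.45 CPM in CB, at 1.84, 0.922 and 0 CPM in Jagged, and at 4.72 and 7.66 CPM in Sca. Both genes were thus highest of their population in OCP 1, PDGFRa 3 and Jagged 1, though Tbx4 was high in all OCP libraries and Isl1 was highest in Sca. Isl1 was also higher in CB libraries 1 and 2 than in OCP 1, PDGFRa 3 and Jagged 1. The forelimb gene Tbx5 was at 215 CPM in OCP 1, 247 CPM in PDGFRa 3 and 181 CPM in Jagged 1, each the lowest of its population, where the others had 240.1 and 263 CPM, 306 and 315 CPM, and 193 and 184 CPM. The part of hindlimb cells in these levels was not tested.

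Hoxc9 and Hoxc10 were called lower in chondroblasts than in each of the other 4 populations. With Hoxc8, they were the 3 members called higher in OCP than in CB (1.16% of all genes in this direction), the 3 called higher in PDGFRa than in CB (1.83%), and the 3 called higher in Jagged than in CB (4.17%). They were the 2 members called higher in Sca than in CB (5.56%). As CB had 1 count of each gene over its 3 libraries, fitted folds depend on the prior count, and ratios of pooled CPM are given with exact 95% intervals that cover counting error only. For Hoxc9 these ratios over CB were 80.6 (14.0 to 3228) in OCP with 70 counts, 99.5 (17.4 to 3977) in PDGFRa with 84 counts, 143 (25.3 to 5707) in Jagged with 123 counts and 55.1 (9.30 to 2235) in Sca with 37 counts. The edgeR test gave adjusted p = 0.00706, 0.00198, 0.000555 and 0.00904 for these comparisons, and Hoxc9 stayed called in all alternatives in which it was tested.

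For Hoxc10 the ratios over CB were 284 (50.6 to 11277) in OCP, 195 (34.6 to 7768) in PDGFRa, 245 (43.4 to 9712) in Jagged and 420 (74.8 to 16653) in Sca, with adjusted p = 0.0400, 0.0354, 0.0241 and 0.0140. Libraries of CB overlapped those of OCP and PDGFRa, which have a library at 0 each. Without OCP library 1 the call against OCP was lost (adjusted p = 0.193), as it was without any 1 of the CB libraries (adjusted p = 0.106, 0.123 and 0.104), and without PDGFRa library 3 the call against PDGFRa was lost (adjusted p = 0.570). No difference of Hoxc9, Hoxc10 or Hoxc11 between the E10.5 populations was called in the fit of all libraries. Without PDGFRa library 3, Hoxc10 and Hoxc11 were called lower in PDGFRa than in Jagged (adjusted p = 0.0837 and 0.0657) and than in Sca (adjusted p = 0.0418 and 0.0691). When OCP 1, PDGFRa 3 and Jagged 1 were left out together, an alternative chosen after the values were seen, log2 fold changes of Hoxc10 and Hoxc11 were 4.29 and 4.66 for Jagged over PDGFRa (adjusted p = 0.0547 and 0.0135) and 5.34 and 4.45 for Sca over PDGFRa (adjusted p = 0.0125 and 0.0139), all called, with 2 libraries left in each population but CB. Without PDGFRa library 3, PDGFRa had 6 counts of Hoxc10 and 1 count of Hoxc11 in all, so the calls against PDGFRa were nearly fixed by its removal. The same alternative called Hoxc10 and Hoxc11 for Sca over OCP (2.56 and 2.60), Hoxc11 for OCP against Jagged (-2.81) and Hoxc11 for CB over PDGFRa (3.57). In the fit of all libraries, Hoxc11 had the opposite sign over PDGFRa, at -1.48 in CB, -0.59 in Jagged and -0.60 in Sca, none of them called. Hoxc10 levels were correlated with those of Hoxc9 (r = 0.807) and Hoxc11 (r = 0.738) over the 14 libraries and not positively with Hoxc4, Hoxc5 or Hoxc6 (r = -0.375, -0.454 and -0.391). Hoxc9 was correlated more with Hoxc8 (r = 0.675) than with Hoxc11 (r = 0.404), so the sets were not sharply apart.

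**Figure D4:**
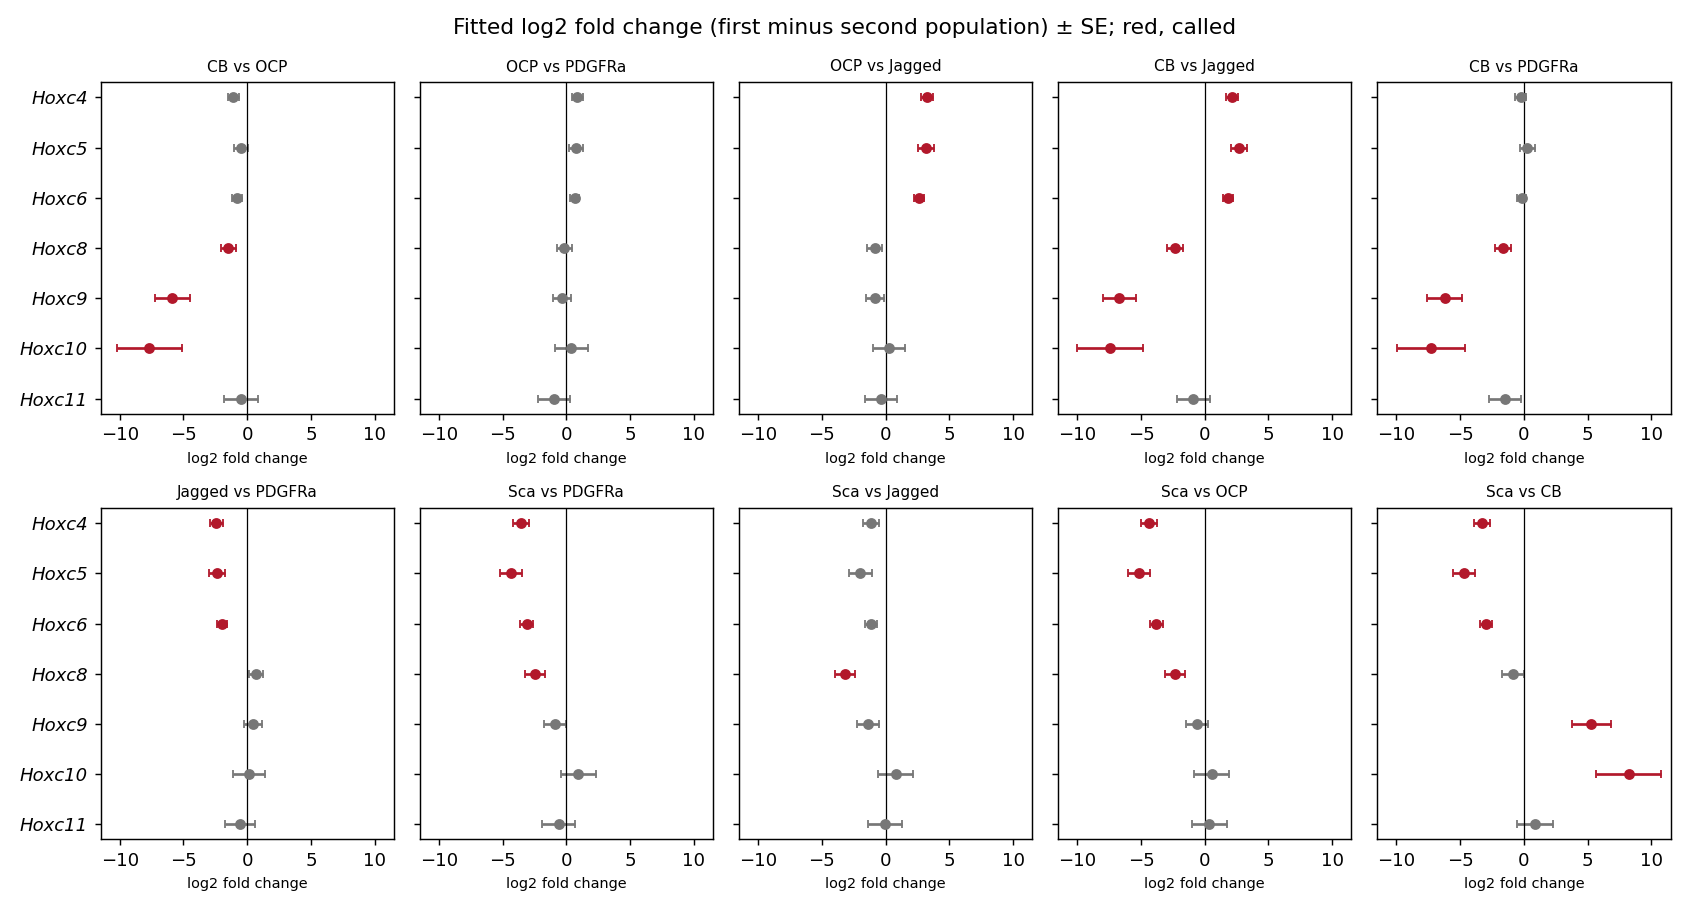
Fitted log2 fold changes of the 7 tested members (first minus second population, with SE) in the 10 pairs of populations; red points were called and grey points were not. Hoxc4, Hoxc5 and Hoxc6 are red together in 6 of the 10 panels, Hoxc9 and Hoxc10 are red only in the 4 panels with CB, where 1 CB count of each sets the width of the fold, and Hoxc11 is grey in all.

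Hoxc12 and Hoxc13, the most posterior genes, were nearly confined to library 3 of S9-JAG1+ LMPs. Hoxc12 had 35 counts there (1.39 CPM), at most 2 counts in any of the other 13 libraries and 0 in 9 of the 14. Hoxc13 had 134 counts there (5.31 CPM), 6 counts in PDGFRa library 2, 4 counts in OCP library 2, at most 1 count in any other and 0 in 8 libraries. This library held 85.4% of all Hoxc12 counts and 91.2% of all Hoxc13 counts. The other Jagged libraries had 0 counts of both, so Jagged overlapped all other populations. Other posterior genes were counted there as well: Cdx4, an axial regulator of Hox genes in the tail bud, was at 3.05 CPM and at 0 in the other Jagged libraries, and Hoxb13 was at 0.793 CPM against 0.0428 and 0 CPM. Cdx2 was at 3.81 CPM in library 3 and at 1.24 and 1.68 CPM in the other Jagged libraries. Hotair had 18 counts in Jagged library 3 and 9 in PDGFRa library 3, with at most 5 in each of the others. The part of tail mesoderm in these levels was not tested.

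The cluster also carries 2 microRNA genes. Mir196a-2 had 0 counts in all 14 libraries, and Mir615 had 3 counts in PDGFRa library 2, 1 in PDGFRa library 3 and 3 in Jagged library 3. Poly(A) selection of RNA gives little information on mature microRNAs, so these counts do not measure them. The mature miR-196a is shown because its seed match occurs in Hoxc8 at more than 1 site; the seed match GGACCCC of miR-615-5p occurs once each in Hoxc6, Hoxc11 and Hoxc12 and in 17.8% of all coding transcripts. Its seed, bases 2 to 8, is in capitals, as are the bases that pair with it in the 3' untranslated region of Hoxc8 (RefSeq and GENCODE, GRCm38).
mmu-miR-196a-5p, chr15:102973365-102973386: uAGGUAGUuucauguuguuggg
Hoxc8 site at chr15:102992975-102992998: acactcacaactctaACTACCTgt
Hoxc8 site at chr15:102993732-102993755: ataaatctttaacatACTACCTaa
Among the 9 coding transcripts of the members, the match ACTACCT was found only in that of Hoxc8, with these 2 sites, on the transcribed strand; 12.3% of all coding transcripts of GENCODE hold it. A match is a description and says nothing of binding in these cells.

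The summed level of the HoxC genes was 115 to 131 CPM in OCP, 71.8 to 79.4 CPM in PDGFRa, 14.8 to 103 CPM in CB, 16.3 to 32.3 CPM in Jagged and 10.9 to 13.5 CPM in Sca. The cluster thus made up 7.32% to 8.99% of the counts of all Hox genes in OCP, 3.67% to 4.42% in PDGFRa, 0.674% to 5.61% in CB, 0.965% to 1.27% in Sca and 0.464% to 1.01% in Jagged. Between OCP and Jagged, the summed levels of the other limb clusters went the other way, from 604 to 663 CPM up to 2057 to 2588 CPM for HoxD and from 548 to 662 CPM up to 1076 to 1154 CPM for HoxA. In Sca, HoxD was lowest, as HoxC was, at 119 to 147 CPM. HoxB genes, at 142 to 164 CPM in OCP and 30.4 to 45.2 CPM in Jagged, lay on the side of HoxC.

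**Figure D5:**
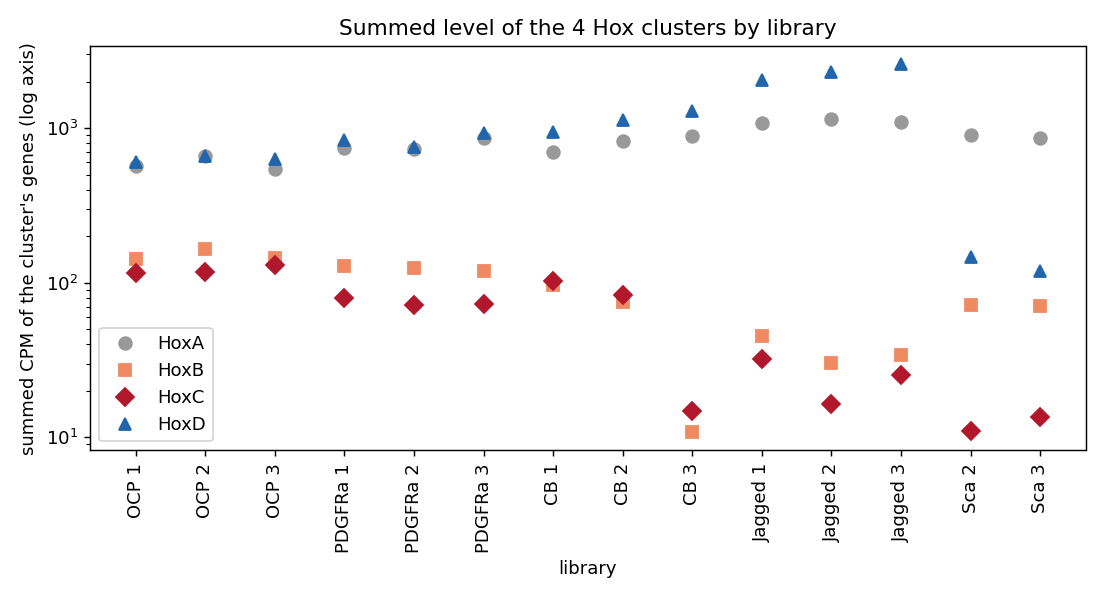
Summed level of the genes of each Hox cluster (CPM on TMM-scaled totals, log axis) in each library, grouped by population. HoxC and HoxB points are high in OCP and PDGFRa and low in Jagged and in CB library 3 (14.8 and 10.8 CPM), whereas HoxA and HoxD points are highest in Jagged.

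Between OCP and Jagged, 9.03% of all genes were called higher in OCP and 3.46% higher in Jagged. Of 9 tested HoxB genes, 7 were called higher in OCP (Hoxb2 to Hoxb8) and 1 higher in Jagged (Hoxb9). Their median log2 fold change was 2.31, where the median over all genes was 0.03. Of the 7 tested HoxC members, 3 were called higher in OCP and the median was 0.25. Of 9 HoxD genes, Hoxd3 was called higher in OCP and Hoxd11, Hoxd12 and Hoxd13, which pattern the distal limb, were called higher in Jagged, with a median of -0.23. Of 11 HoxA genes, Hoxa11 and Hoxa13 were called higher in Jagged, with a median of -0.16. Meis1, Meis2 and Meis3, cofactors that bind DNA with Hox proteins, were called higher in OCP. Meis1 was at 121 to 147 CPM in OCP and at 7.25 to 21.8 CPM in Jagged, without overlap.

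Between CB and OCP, 1.16% of all genes were called lower in CB. Of 9 tested HoxB genes, 6 were called lower there (Hoxb3, Hoxb5, Hoxb6, Hoxb7, Hoxb8 and Hoxb9), as were Meis1, Meis2 and Meis3, next to Hoxc8, Hoxc9 and Hoxc10. Of these HoxB and Meis genes, all but Hoxb9 are among the genes more than 3-fold lower in CB library 3 than in either other CB library. Without that library 3 of the 6 HoxB genes stayed called (Hoxb6, Hoxb7 and Hoxb8), while Hoxb3 (-0.74), Hoxb5 (-1.09) and Hoxb9 (adjusted p = 0.218) did not. Meis1 (-1.49), Meis2 (-1.20) and Meis3 (-1.75) stayed called, Meis2 just past the fold limit. With all libraries, of 9 HoxD genes Hoxd1 and Hoxd4 were called lower in CB and Hoxd12 and Hoxd13 higher (log2 fold changes 2.30 and 3.57). Of 11 HoxA genes, Hoxa11 and Hoxa13 were called higher in CB (1.39 and 4.87) and 0 lower. Medians were -1.73 for HoxB, -1.09 for HoxC, -0.14 for HoxD and -0.23 for HoxA, against -0.02 over all genes. Between Sca and OCP, the medians were -1.80 for HoxB, -2.31 for HoxC, -1.90 for HoxD and 0.25 for HoxA, against -0.03 over all genes. Of 7 genes upstream of axial Hox expression, Cdx1 and Cdx2 were called higher in Jagged than in OCP, and the other 5 were not called or not tested there.

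The genes most like each member over the 14 libraries were sought among 10823 others with a mean of at least 5 CPM. For Hoxc4, Hoxc5 and Hoxc6 they were Lhfp, Zim1 and Rspo1 in each case, with r from 0.947 to 0.967. Rspo1 codes for a secreted activator of Wnt signalling. For Hoxc8 they were 2310009B15Rik, Lix1 and Tmem47 (r = 0.852 to 0.870), for Hoxc9 Zfp553, Trim59 and Aaas (r = 0.933 to 0.937), for Hoxc10 Ngdn, Txndc9 and Nrp (r = 0.888 to 0.920), and for Hoxc11 Med21, Wdr53 and Cnot4 (r = 0.748 to 0.812). As these are the highest of many values and the libraries share population and depth, they are a description of likeness.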

How the data were processed

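The authors aligned single-end reads of poly(A)-selected RNA to mm10 with STAR, kept 1 hit for reads with several, and counted reads that start in RefSeq exons with QuasR. They deposited raw counts per gene with an exon length. Whether counting used strand is not given in the sources used here. Of 24454 identifiers, 24374 were matched to a symbol; the other 80 held 0.358% of counts. Libraries were tested with edgeR 4.0.16 (R 4.3.3): quasi-likelihood test, TMM totals, filterByExpr (15125 genes), 14 libraries in 1 fit, Benjamini-Hochberg adjustment over all genes, calls at adjusted p of at most 0.1 and absolute log2 fold change of at least 1.2. All adjusted p-values are from this test unless another is named. The SE is the fold change divided by the root of F. Alternatives, including DESeq2 1.42.0, are given in the closing section. The scripts were tested on simulated data. Likeness used log2 CPM with a prior count of 2. Members were named by symbol; members and gene lists were chosen with earlier results of these data known. Libraries are named replicates, but separate embryo pools are not stated for each, so p-values measure the spread between these samples. Some results on cofactors and chromatin regulators are not reported here.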

Additional observations from a re-analysis of the deposited data

How the results depend on the processing

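Each count of HoxC members called was recomputed with 1 library left out in turn and under other settings. With 1 library left out, the counts were 1 to 3 for CB against OCP (3 with all libraries), 0 for OCP against PDGFRa (0), 3 to 4 for OCP against Jagged (3), 5 to 8 for CB against Jagged (6), 1 to 3 for CB against PDGFRa (3), 3 to 5 for Jagged against PDGFRa (3), 3 to 6 for Sca against PDGFRa (4), 1 to 2 for Sca against Jagged (1), 3 to 4 for Sca against OCP (4), 5 for Sca against CB (5) and 5 to 7 over any of the 5 populations (6). Only Hoxc9 stayed called between CB and OCP without OCP library 1, CB library 2 or CB library 3, and between CB and PDGFRa without PDGFRa library 3. Without CB library 1, the members called between CB and OCP were Hoxc4, Hoxc6 and Hoxc9. Without either Sca library the filter kept Hoxc12 and Hoxc13, whose calls rest on Jagged library 3. Of the other settings, fitting only the populations compared left 1 member between CB and OCP (Hoxc8). Hoxc9 and Hoxc10 did not pass the filter in that fit and were not tested there. No filter on low counts gave 5 members between Jagged and PDGFRa and 2 between Sca and Jagged, with Hoxc12 or Hoxc13 added, as did leaving out the 3 libraries with most Pitx1 for the former (5, with Hoxc10 and Hoxc11). Between Sca and Jagged, DESeq2, the likelihood ratio test and a fit of only these populations each gave 2 members (Hoxc5 and Hoxc8). Over 38 fold changes of members that were called, 941 values were computed, of which 0 changed sign, 36 lost the call and 905 kept it. Hoxc11 is not among these, as it was not called in the reported fit. Its sign against PDGFRa did change when the libraries with most Pitx1 were left out. The 90 values of levels moved by less than 1 SD.

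Deviations from the population mean were correlated between same-numbered libraries with r from -0.18 to 0.31 (26 pairs, 4 over 0.1). Between libraries with different numbers, r ran from -0.31 to 0.41. The numbers thus showed no sign of a pairing, but so few libraries per population cannot exclude one. With the replicate number as a block, 4 members were called between CB and OCP, with Hoxc4 added (-1.30, adjusted p = 0.0302), and the counts of the other comparisons were 0 for OCP against PDGFRa, 3 for OCP, 6 for CB and 1 for Sca against Jagged, 3 for CB, 3 for Jagged and 4 for Sca against PDGFRa, 4 for Sca against OCP, 5 for Sca against CB and 6 over any population. Over all genes, counts of calls under the alternatives ran from 835 to 5263 for CB against OCP (1175 in the reported fit), 533 to 3042 for OCP against PDGFRa (732), 1506 to 7211 for OCP against Jagged (1890), 2258 to 9966 for CB against Jagged (2927), 1386 to 8495 for CB against PDGFRa (1914), 860 to 4243 for Jagged against PDGFRa (1059), 1224 to 4606 for Sca against PDGFRa (1594), 1333 to 4723 for Sca against Jagged (1729), 1488 to 7087 for Sca against OCP (1930), 2242 to 9612 for Sca against CB (2941) and 3468 to 11312 for any population (4411), with no limit on the fold change at the high end. Depth limits Hoxc9 to Hoxc13: a count of 0 allows up to 0.149 CPM in the shallowest library.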
